A study of Mus musculus with 2 samples.

Results

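The cells described here were monocytes of the mouse eye that carried RNA of Fabp4, the gene of a cytosolic fatty acid-binding protein best known from fat cells, capillary endothelium and macrophages. They were chosen by a gate on unique molecular identifier (UMI) counts, where 1 UMI stands for 1 captured RNA molecule. A barcode entered with at least 1500 UMIs and 200 genes, at least 2 UMIs in the sum of Treml4, Cd300e and Fcgr4, at least 1 of Csf1r, at least 1 of Fabp4 and none of Cd79a, Cd3e or Ncr1. The gate held 331 cells, 55 in the Tsc1 flox library and 276 in the Tsc1 RPE KO library, of 3377 barcodes kept by the first 2 limits. The same gate without a Fabp4 UMI held 199 cells, 43 and 156 in that order. Because Fabp4, Treml4, Cd300e, Fcgr4 and Csf1r chose the cells, their values are given as a description.

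Nonclassical monocytes are the blood monocytes that crawl along the inner wall of small vessels and clear debris from it. They arise mainly from Ly6c2-high classical monocytes, lose Ccr2 and Ly6c2 on the way, and depend on the nuclear receptor Nr4a1 and on Csf1r, the receptor of the growth factors CSF1 and IL-34. The choroid is the vessel bed behind the retinal pigment epithelium (RPE), and blood cells that remain in its capillaries enter a digest of the tissue. Fabp4 and Cd36, a scavenger receptor that takes up fatty acids and oxidised lipoproteins, are textbook targets of the nuclear receptor PPAR-gamma (Pparg).

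Both libraries came from RPE and choroid of mice aged 10 weeks, taken after removal of the neural retina, digested with enzymes and sorted for live cells. Tsc1 flox mice carried the conditional allele Tsc1tm1Djk/J, and Tsc1 RPE KO mice carried the same allele with Best-Cre, which the labels call RPE-specific. The protein made from Tsc1 acts with that of Tsc2 to hold back mTORC1, a kinase that promotes growth. Each library pooled 1 male and 1 female, so each genotype had 1 library and no test between genotypes was possible. Every interval below is a 95% interval that covers counting error only: exact Poisson for levels, Clopper-Pearson for shares and conditional binomial for ratios. A share of 0 is given with the limit that 3 counts of the total would set, which limits cells with a UMI and not cells expressing the gene. Ratios given as at least or at most set a count of 0 to a floor of 3 UMIs. They leave out the counting error of the other side and are not interval limits. Levels are counts per 1000000 summed UMIs of a set of cells (CPM).

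The deposited tables held 10771118 UMIs for Tsc1 flox and 12574364 for Tsc1 RPE KO, with 1530 and 1847 barcodes kept. The libraries shared 2 kept barcodes and none of the gated cells. Cells with Fabp4 had median depths of 5818 and 5639 UMIs for Tsc1 flox and Tsc1 RPE KO, and gated cells without it of 8089 and 6659.5. Cells without a Fabp4 UMI were therefore not the shallower ones. In the Tsc1 RPE KO library 6 of the 276 cells held at least 20 UMIs of rod, red cell or fibroblast genes (4 rod, 1 red cell, 1 fibroblast), and no cell of Tsc1 flox did. Without them the rod genes summed to 37.4 CPM in place of 667 CPM in Tsc1 RPE KO, against 20.4 CPM in Tsc1 flox. Red cell genes likewise summed to 76.0 CPM in place of 1559 CPM.

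Nonclassical markers that the gate did not use fitted the label. Nr4a1 was detected in 55 of 55 cells of Tsc1 flox and 266 of 276 cells of Tsc1 RPE KO, at 1354 and 993 CPM. Ace, the angiotensin-converting enzyme and a surface marker of nonclassical monocytes, was detected in 52 and 262 cells, at 865 and 776 CPM. Itgal, the alpha chain of the integrin LFA-1 used for crawling, was detected in 53 and 271 cells, at 1159 and 1285 CPM. Pou2f2, a transcription factor, was detected in 55 and 274 cells. Ly6c2, the classical marker, was detected in 6 and 27 cells, and Ccr2, the receptor for exit from bone marrow, in 14 and 13 cells. Classical RNA was not absent, since the full list of 15 classical monocyte genes had UMIs in all 55 and all 276 cells. That list summed to 4421 and 5116 CPM, led by Plac8 at 2129 and 2290 CPM. Gated cells without Fabp4 had 7408 and 8140 CPM of it.

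Marker lists of the cell types known for Fabp4 were summed over the same cells. Of 8 adipocyte markers, 8 were at 0 in Tsc1 flox, and 1 UMI of Retn was the total of the list in Tsc1 RPE KO. The endothelial list summed to 114 and 166 CPM, with 6 and 4 of its 12 members at 0, and its leading members were Flt1 and Pecam1, which monocytes also express. The tissue macrophage list summed to 399 and 269 CPM, in 41 of 55 and 203 of 276 cells, with 9 of its 15 members at 0 in both libraries, Mrc1, Cd163 and Mertk among them. The part of other cell types in the Fabp4 RNA was not tested. Fabp4 itself was detected in 0 of 414 B cells of Tsc1 flox, which allows a share of up to 0.725%, and in 1 of 326 of Tsc1 RPE KO (0.307%). No T cell had it (0 of 322 and 0 of 336, which allow up to 0.932% and 0.893%), and it was found in 0 of 41 and 4 of 48 endothelial cells. Median depths were 3910.5 and 3886.5 UMIs in the B cells and 5708 and 5172 in the T cells, against 5818 and 5639 in the gated cells with Fabp4. The B and T cell shares, but not the endothelial ones, describe the background that free RNA leaves at these depths. Since the B cells were shallower than the gated cells, their share may be too low for the gated depth.

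The cells with Fabp4 formed 3.59% of kept barcodes in Tsc1 flox (2.72% to 4.65%) and 14.9% in Tsc1 RPE KO (13.3% to 16.7%). Gated cells without Fabp4 formed 2.81% (2.04% to 3.77%) and 8.45% (7.22% to 9.81%). The division of the gated cells by Fabp4 was more alike: 56.1% of Tsc1 flox (45.7% to 66.1%) and 63.9% of Tsc1 RPE KO (59.2% to 68.4%) carried it. With each gated cell thinned to 1500 UMIs the shares were 36.7% and 38.2%. Shares of barcodes also carry the digestion, the sort of live cells and the UMI minimum, and whether these differed between the libraries was not tested.

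The mice within a pool could be told apart by sex-linked RNA, a split chosen after seeing the data. Cells with Xist and no UMI of Ddx3y, Eif2s3y, Kdm5d or Uty came from the female and are called Xist cells, and those with such a UMI and no Xist came from the male and are called Y cells. In Tsc1 flox 20 cells with Fabp4 were Xist cells, 18 were Y cells and 17 had neither. In Tsc1 RPE KO 197 were Xist cells, 28 were Y cells, 6 had both and 45 had neither. Among all kept cells of each call, the gated cells with Fabp4 made up 3.26% of Xist cells (2.0% to 4.99%) and 3.74% of Y cells (2.23% to 5.85%) in Tsc1 flox. The same shares in Tsc1 RPE KO were 19.8% of Xist cells (17.3% to 22.4%) and 7.67% of Y cells (5.16% to 10.9%). The high share of the Tsc1 RPE KO library was thus mostly that of its female, whose interval lay apart from those of the other mice, while the interval of its male overlapped that of the Tsc1 flox male and lay just above that of the Tsc1 flox female. Outside the gate, Xist cells were 56.5% and 67.9% of the called cells (Tsc1 flox first, then Tsc1 RPE KO). They were 52.6% and 87.6% among gated cells with Fabp4, and 47.4% and 89.8% among gated cells without it. The high share of Xist cells in Tsc1 RPE KO was therefore not particular to cells with Fabp4. Gated cells without Fabp4 made up 11.5% of kept Xist cells and 3.56% of kept Y cells there. With 1 mouse of each sex and genotype, mouse, sex and genotype cannot be told apart in these cells.

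**Figure D1:**
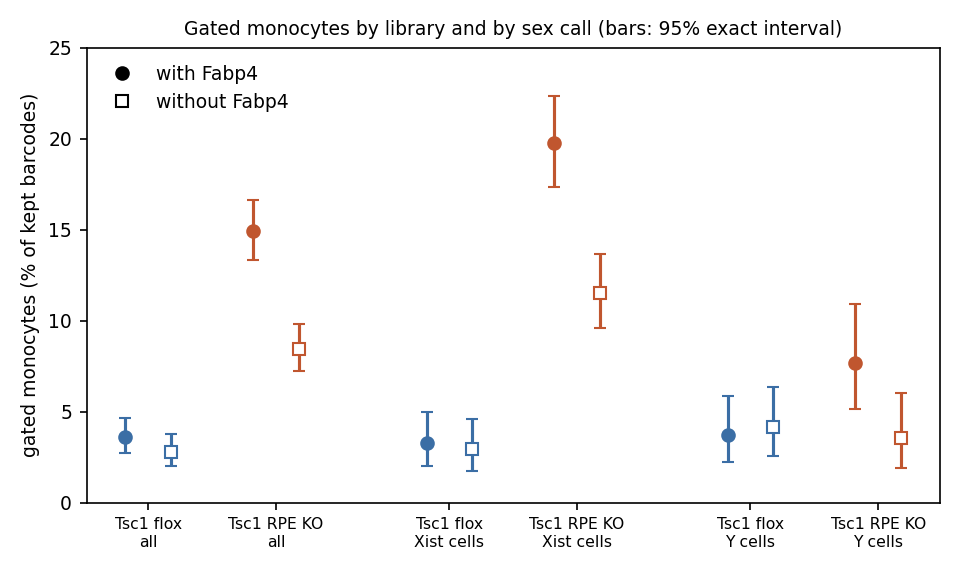
Gated monocytes as a percentage of kept barcodes (vertical axis) for all barcodes, Xist cells and Y cells of each library. Filled circles are cells with Fabp4, open squares cells without, and bars are 95% exact intervals. The Xist cells of Tsc1 RPE KO stand highest, at 19.8% with Fabp4, and the other called groups with Fabp4 lie between 3.26% and 7.67%.

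Fabp4 (chromosome 3, 10204088 to 10208576, minus strand, mm10) varied widely among the cells it selected. The median was 3 UMIs a cell in both libraries, with maxima of 14 and 16. In Tsc1 flox 19 cells had a single UMI and 21 had 5 or more, and in Tsc1 RPE KO 66 had a single UMI and 97 had 5 or more. Summed over cells its level was 635 CPM in Tsc1 flox against 644 CPM in Tsc1 RPE KO. By mouse it was 724 CPM in the Xist cells and 555 CPM in the Y cells of Tsc1 flox, and 626 and 785 CPM in those of Tsc1 RPE KO. These levels hold only for cells chosen for at least 1 UMI of Fabp4.

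Other genes also differed with the Fabp4 count, though not all of them step by step. Cd36 had 118 CPM in Tsc1 flox cells with no Fabp4 UMI, 190 CPM with 1, 505 CPM with 2 to 4 and 560 CPM with 5 or more. The same series in Tsc1 RPE KO was 103, 164, 245 and 278 CPM. Cd36 thus climbed through all 4 classes in both libraries, and cells with 1 Fabp4 UMI lay nearer to the cells with none. The step from 2 to 4 UMIs to 5 or more was within counting error. Its intervals were 366 to 681 and 442 to 700 CPM in Tsc1 flox, and 208 to 286 and 239 to 322 CPM in Tsc1 RPE KO. In Tsc1 flox the intervals for 0 and 1 UMI overlapped as well (83.9 to 161 and 121 to 286 CPM). Cd300e, a gate gene that encodes an activating receptor, went from 130 to 174, 435 and 364 CPM in Tsc1 flox and from 138 to 262, 342 and 329 CPM in Tsc1 RPE KO. Spn (CD43, a sialoglycoprotein of nonclassical monocytes) stepped up between 0 and 1 UMI, from 245 to 447 CPM and from 383 to 553 CPM, and moved little beyond. H2-Aa stood at 2028 CPM in Tsc1 flox cells with no Fabp4, 993 CPM with 1 UMI, 0 CPM with 2 to 4 and 269 CPM with 5 or more. In Tsc1 RPE KO it stood at 1448, 215, 402 and 413 CPM. The median depth of these classes was 8089, 6466, 4996 and 7059 UMIs in Tsc1 flox and 6659.5, 5483.5, 5308 and 6089 in Tsc1 RPE KO, so it did not climb with the Fabp4 count.

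**Figure D2:**
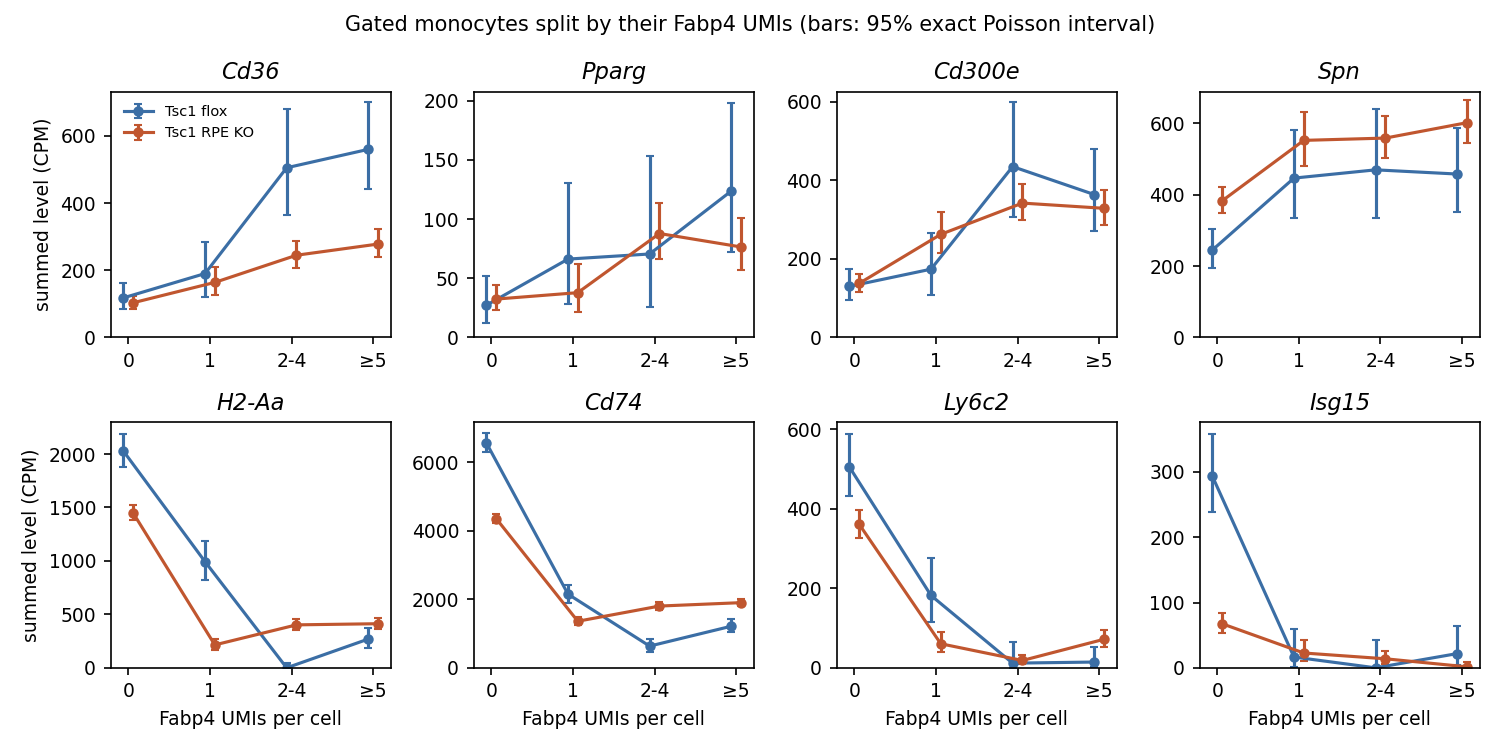
Summed level in CPM (vertical axes) of 8 genes in gated monocytes grouped by their Fabp4 UMIs (horizontal axes), for Tsc1 flox in blue and Tsc1 RPE KO in orange, with 95% exact Poisson intervals. Cd36 climbs from 118 to 560 CPM and from 103 to 278 CPM, while H2-Aa, Cd74, Ly6c2 and Isg15 are highest where Fabp4 is 0.

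Cells with and without Fabp4 were then compared gene by gene within each library. A gene counted as apart when its CPM ratio was at least 2-fold in the same direction in both libraries. Of 6412 genes with at least 50 UMIs over the gated cells, 22 were higher with Fabp4 (0.343%) and 67 were lower (1.04%). All 7 measured MHC class II genes, 9 of 16 interferon-induced and 5 of 13 classical monocyte genes were among those lower. Within Tsc1 flox alone 8.76% of genes were at least 2-fold higher and 6.94% lower, and within Tsc1 RPE KO 1.43% and 1.72%. This is the contrast that the gate itself draws, so the values describe the cells and are not tested. Of the 12 genes ranked furthest above by the interval bound nearest 1, 6 (Cd300ld3, Cd36, Zbtb16, Cdk6, Pparg and Tgfbr3) were 2-fold apart in both libraries. The 22 also held Hbb-bt, a hemoglobin gene, with 57 and 2 UMIs in Tsc1 RPE KO, and the part of the red cell barcode in it was not tested.

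The lipid genes divided. Cd36 (chromosome 5, 17781690 to 17888801, minus strand) had 416 CPM with and 118 CPM without Fabp4 in Tsc1 flox, a ratio of 3.53 (2.46 to 5.17). For Tsc1 RPE KO the levels were 239 and 103 CPM and the ratio 2.31 (1.88 to 2.86). It was detected in 43 of 55 and 160 of 276 cells with Fabp4. Pparg had 90.3 and 27.2 CPM in Tsc1 flox (ratio 3.31, 1.54 to 7.91) and 71.8 and 32.4 CPM in Tsc1 RPE KO (2.21, 1.52 to 3.29). Pltp, a plasma phospholipid transfer protein, had ratios of 2.77 (1.86 to 4.23) and 1.42 (1.21 to 1.67). Npc2, which carries cholesterol out of lysosomes, went the other way, at 0.418 (0.341 to 0.510) and 0.476 (0.424 to 0.535). Plin2, the coat protein of lipid droplets, had ratios of 1.29 and 1.37.

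Lipid genes beyond Cd36, Pparg and Pltp showed no common direction. Of the 12 measured genes of lipid uptake and storage, 2 were at least 2-fold higher in both libraries (Cd36 and Pparg) and 1 lower (Msr1, a scavenger receptor, at 0.412 and 0.288), and the median log2 ratios of the list were 0.17 and 0.03. Genes of fatty acid oxidation, another PPAR-controlled group, had median log2 ratios of −0.01 and −0.01 over 8 measured members, and none was at least 2-fold apart in both. Ucp2, the member with most UMIs, had ratios of 1.13 and 0.979. All 6412 genes had medians of 0.06 and 0.04.

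Cd300ld3, a myeloid receptor gene, was furthest above by rank and is a neighbour of Cd300e on chromosome 11 (115042131 to 115048409 and 115051917 to 115062177). It had 11 UMIs with and 0 without Fabp4 in Tsc1 flox. The ratio was 3.53 against a floor of 3 UMIs in the group, with a lower interval limit of 2.42. The other library had 70 and 13 UMIs, a ratio of 3.61 (1.98 to 7.12). Other receptors were named after their values were seen, and of 17 measured Fc receptor and signalling genes none was at least 2-fold higher in both (median log2 ratios 0.04 and −0.05). Pilra, an inhibitory receptor, had ratios of 3.50 (2.16 to 5.89) and 1.61 (1.36 to 1.92). Lilra5, an activating receptor, had ratios of 3.02 (1.63 to 5.98) and 1.59 (1.18 to 2.17). Tgfbr3, the TGF-beta co-receptor betaglycan, had 24 and 3 UMIs in Tsc1 flox against 74 and 21 in Tsc1 RPE KO. Its log2 ratio in Tsc1 RPE KO went from 1.24 to −0.393 with cells thinned to 1500 UMIs and grouped anew by the Fabp4 UMIs left. Thinning left 165 of 432 gated cells there with Fabp4, in place of 276, so depth and regrouping cannot be told apart. Fcgr1, the high-affinity IgG receptor, lay lower instead, at 0.275 (0.121 to 0.567) and 0.292 (0.163 to 0.503).

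Other genes ranked furthest above included Zbtb16, Stap1, Eno3 and Cdk6. Zbtb16 (the zinc finger factor PLZF) had 12 and 0 UMIs in Tsc1 flox, at least 3.85-fold higher against the same floor, and 58 and 13 in the other library, at a ratio of 2.99 (1.62 to 5.96). Stap1, a signalling adaptor, had 419 and 179 CPM in Tsc1 flox (2.35, 1.72 to 3.24) and 366 and 196 CPM in Tsc1 RPE KO (1.87, 1.60 to 2.19). Eno3, an enolase, had ratios of 2.18 and 1.72. Cdk6, a cell cycle kinase, had ratios of 5.77 (1.69 to 30.6) and 2.91 (1.53 to 5.99) from 18, 3, 52 and 12 UMIs. With cells thinned to 1500 UMIs and grouped anew in the same way, the log2 ratio of Cdk6 in Tsc1 RPE KO went from 1.54 to −0.476.

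Of 17 measured nonclassical identity genes outside the gate genes, 15 had ratios above 1 in both libraries and none was at least 2-fold apart in both, with median log2 ratios of 0.59 and 0.49. In single libraries 15 and 17 of the 17 were above 1, and over all 6412 genes 3399 and 3515 were, with medians of 0.06 and 0.04. Spn had 457 and 245 CPM in Tsc1 flox (1.87, 1.42 to 2.47) and 574 and 383 CPM in Tsc1 RPE KO (1.5, 1.34 to 1.68). Ace had ratios of 1.37 (1.14 to 1.64) and 1.40 (1.27 to 1.54), and Nr4a1 of 1.33 (1.15 to 1.54) and 1.05 (0.972 to 1.13). Of 15 measured adhesion genes, 11 were above 1 in both libraries, with medians of 0.41 and 0.32. Itgal had ratios of 1.71 (1.45 to 2.02) and 1.43 (1.32 to 1.54), and Itgb2, the other chain of LFA-1, of 1.46 and 1.22. Bcl2a1d, which opposes cell death, had ratios of 1.66 and 1.94, though its near-identical copies Bcl2a1a and Bcl2a1b can share its reads.

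Genes of MHC class II, which show peptides to helper T cells, were lower with Fabp4 without exception among those measured. All 7 measured members of 8 were at least 2-fold lower in both libraries, against 1.04% of all genes, with median log2 ratios of −2.23 and −2.0. H2-Aa had 457 CPM with and 2028 CPM without Fabp4 in Tsc1 flox (0.225, 0.188 to 0.269) and 362 and 1448 CPM in Tsc1 RPE KO (0.25, 0.228 to 0.275). Cd74, the invariant chain, had 1401 and 6567 CPM in Tsc1 flox and 1739 and 4358 CPM in Tsc1 RPE KO. Ciita, the transactivator of the class II genes, had 8.74 and 63.6 CPM in Tsc1 flox and 3.53 and 36.8 CPM in Tsc1 RPE KO.

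Class II RNA sat in a minority of cells. At least 5 UMIs of H2-Aa, H2-Ab1 and H2-Eb1 together were found in 5 of 55 cells with Fabp4 (9.09%, 3.02% to 19.95%) and 17 of 43 without (39.5%, 24.98% to 55.6%) in Tsc1 flox. The counts for Tsc1 RPE KO were 24 of 276 (8.70%, 5.65% to 12.7%) and 34 of 156 (21.8%, 15.6% to 29.1%). These cells held 99.2% and 94.7% of the class II UMIs of the cells with Fabp4 in Tsc1 flox and Tsc1 RPE KO. A single Y cell of Tsc1 flox held 263 of the 368 class II UMIs of the 55 cells there. The median cell had none in either library.

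The class II genes share a promoter element, the Y box, which is bound by the factor NF-Y, and interferon-induced genes share the ISRE, which is bound by STAT and IRF factors. RefSeq promoters (build GRCm38.p6, 250 bases before to 50 after the start) are shown for a pair of genes from each group, since the genes of each group lay lower together. The letters GATTGG of the Y box core, and for the ISRE a pair of GAAA runs with 2 bases of any kind between them, were searched on both strands and are in capitals. The H2-Aa promoter is chr17:34287774-34288073 and that of H2-DMb1 chr17:34152941-34153240. The Isg15 promoter is chr4:156200769-156201068, and that of Ifi205 chr1:174031706-174032005. The H2-DMb1 promoter is on the plus strand and the others are on the minus strand.
H2-Aa: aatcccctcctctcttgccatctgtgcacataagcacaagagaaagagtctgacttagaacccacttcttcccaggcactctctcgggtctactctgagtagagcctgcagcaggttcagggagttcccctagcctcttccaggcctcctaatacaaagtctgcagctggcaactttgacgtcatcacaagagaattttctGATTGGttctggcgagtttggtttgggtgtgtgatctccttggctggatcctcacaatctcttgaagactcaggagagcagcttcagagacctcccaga
H2-DMb1: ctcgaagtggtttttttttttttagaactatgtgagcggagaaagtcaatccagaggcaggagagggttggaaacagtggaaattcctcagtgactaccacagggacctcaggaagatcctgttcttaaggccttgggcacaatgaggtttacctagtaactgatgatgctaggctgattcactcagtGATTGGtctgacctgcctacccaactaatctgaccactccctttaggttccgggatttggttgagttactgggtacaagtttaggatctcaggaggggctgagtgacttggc
Isg15: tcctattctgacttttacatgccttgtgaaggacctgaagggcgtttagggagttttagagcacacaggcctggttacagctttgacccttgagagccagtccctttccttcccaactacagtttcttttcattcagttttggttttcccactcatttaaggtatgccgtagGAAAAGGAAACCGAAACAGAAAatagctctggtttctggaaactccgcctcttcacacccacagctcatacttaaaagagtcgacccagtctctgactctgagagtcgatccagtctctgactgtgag
Ifi205: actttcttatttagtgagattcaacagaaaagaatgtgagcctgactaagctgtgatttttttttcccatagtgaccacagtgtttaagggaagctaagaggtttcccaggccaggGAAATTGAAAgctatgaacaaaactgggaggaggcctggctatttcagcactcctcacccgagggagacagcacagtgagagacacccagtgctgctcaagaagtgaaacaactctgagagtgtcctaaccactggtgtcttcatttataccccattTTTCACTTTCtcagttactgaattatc
GATTGG or its reverse complement was present for 5 of 5 class II genes with an entry (H2-Aa, H2-DMa, H2-DMb1, H2-Eb1 and H2-Oa, the last with too few UMIs to be measured) and for 18.2% of all 27025 genes in the table. Counted by promoter it was in 5 of 6, since 1 of the H2-DMa promoters lacks it, and in 16.1% of all 32851. It was also present for 7 of 9 MHC class I genes with an entry, a list with median log2 ratios of −0.24 and −0.08 and none of 11 measured members at least 2-fold apart. The ISRE letters or their reverse complement were present for 9 of 15 interferon-induced genes with an entry and for 3.99% of all genes. The matches in Isg15 overlap one another. A match describes the letters and is not evidence of binding in these cells.

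Interferon-induced genes were the second group below. Of 16 measured members, 14 had ratios below 1 in both libraries and 9 were at least 2-fold lower in both, with median log2 ratios of −1.54 and −1.09. Over all 6412 genes 1.04% were at least 2-fold lower in both. Isg15, a ubiquitin-like modifier, had 14.6 CPM with and 294 CPM without Fabp4 in Tsc1 flox (0.0496, 0.0158 to 0.120). In Tsc1 RPE KO it had 11.2 and 67.5 CPM (0.166, 0.0946 to 0.276). Its UMIs lay in 4 of 55 cells with and 13 of 43 without Fabp4 in Tsc1 flox. The counts in Tsc1 RPE KO were 11 of 276 and 33 of 156. With cells thinned to equal depth, 2 of 55 (0.443% to 12.5%) and 4 of 43 (2.59% to 22.1%) of Tsc1 flox had it. In Tsc1 RPE KO 5 of 276 (0.591% to 4.18%) and 6 of 156 (1.42% to 8.18%) did, so these shares overlapped in both libraries. Irf7, an interferon regulatory factor, had 131 and 372 CPM in Tsc1 flox and 79.4 and 170 CPM in Tsc1 RPE KO. Ifi205 had 0 and 22 UMIs in Tsc1 flox, a ratio of at most 0.131 against the floor, and 38 and 91 UMIs in Tsc1 RPE KO (0.28, 0.187 to 0.413). Slfn5, another interferon-induced gene, had 78.6 and 381 CPM in Tsc1 flox and 34.7 and 217 CPM in Tsc1 RPE KO. The membrane proteins Ifitm2 and Ifitm6 did not share this pattern, with ratios of 1.06 and 1.07, and of 1.29 and 0.937.

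Classical monocyte genes were lower with Fabp4 as well. Of 13 measured members, 5 were at least 2-fold lower in both libraries, against 1.04% of all 6412 genes. Ratios of 10 members were below 1 in both, with median log2 ratios of −0.63 and −1.40. Ly6c2 had 72.8 and 505 CPM in Tsc1 flox (0.144, 0.0906 to 0.220) and 48.8 and 361 CPM in Tsc1 RPE KO (0.135, 0.105 to 0.172). F13a1, the coagulation factor subunit typical of classical monocytes, had 1 and 33 UMIs in Tsc1 flox against 1 and 50 in Tsc1 RPE KO, the lowest ratios of the list. Plac8 had ratios of 0.645 and 0.635, and S100a4 of 0.656 and 0.679. Hp and Mgst1 did not share this pattern: Hp had ratios of 1.21 and 1.13, and Mgst1 of 1.11 and 0.77. Tmem176a and Tmem176b, ion channel-like proteins of myeloid cells, had ratios of 0.208 and 0.203, and of 0.194 and 0.153.

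**Figure D3:**
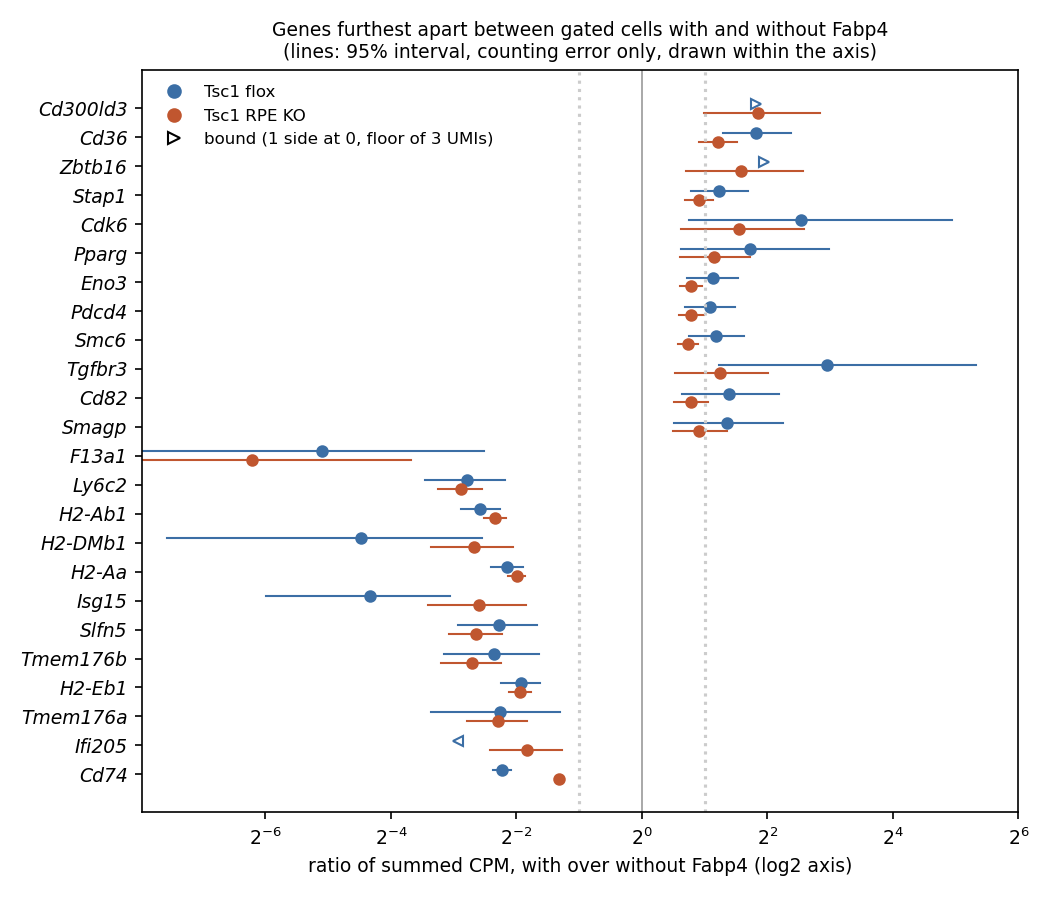
CPM ratio of gated cells with Fabp4 over those without (horizontal log2 axis) for the 12 genes furthest above and 12 furthest below 1, for Tsc1 flox in blue and Tsc1 RPE KO in orange, with 95% intervals as lines. Open triangles are bounds for genes with no UMI on one side, and dotted lines mark 2-fold. Every gene shown lies on the same side of 1 in both libraries.

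Fewer genes were apart once cells rich in class II or classical RNA were set aside. When gated cells with at least 5 UMIs of H2-Aa, H2-Ab1 and H2-Eb1, or of Ly6c2, Ccr2, F13a1 and Fn1, were left out, an alternative chosen after seeing the data, 46 cells with and 20 without Fabp4 remained in Tsc1 flox against 251 and 101 in Tsc1 RPE KO. The genes at least 2-fold apart in both libraries then numbered 10 higher and 5 lower of 5437 measured, in place of 22 and 67 of 6412, with fewer cells behind each ratio. They were not simply a part of the earlier genes. Among those higher, Cdk6, Dpep2, Hbb-bt and Stmn1 had been called before, and Ccl4, Clk2, Rtn1, Smg5, Tstd3 and Utp23 had not. Among those lower, Pak1, Slfn5, Tiam1 and Vwa5a had been called before, and Gbp2b had not. Cd36 had ratios of 2.02 (1.31 to 3.21) and 1.63 (1.29 to 2.08), both still above 1. Pparg had ratios of 1.44 (0.637 to 3.67) and 1.5 (0.986 to 2.34), so its difference was no longer beyond counting error. Cd300ld3 had 9 and 0 UMIs in Tsc1 flox (lower interval limit 0.843) and a ratio of 2.81 (1.44 to 6.13) in Tsc1 RPE KO. Zbtb16 had 10 and 0 UMIs (lower limit 0.957) and a ratio of 1.68 (0.880 to 3.46). Stap1 had ratios of 1.32 (0.901 to 1.96) and 1.34 (1.13 to 1.60), and Eno3 of 1.65 (1.15 to 2.43) and 1.29 (1.12 to 1.49). In Tsc1 flox only Eno3 of these stayed beyond counting error. Spn and Itgal came to 1.10 and 1.14, and to 1.10 and 1.13. Isg15 stood at 0.854 (0.122 to 9.44) and 0.488 (0.227 to 1.07), so its difference was no longer beyond counting error in either library. Irf7 stood at 0.623 (0.360 to 1.09) and 0.583 (0.427 to 0.801). Cd74, which the filter did not use, came to 0.928 in Tsc1 flox against 1.18 in Tsc1 RPE KO, where its direction turned. Slfn5 was still at least 2-fold lower in both, with ratios of 0.452 and 0.247.

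Between the libraries, 4975 genes had at least 50 UMIs over the cells with Fabp4. Of these, 239 were at least 2-fold higher in Tsc1 RPE KO (4.8%) and 58 were lower (1.17%). With genes above their gated level in free RNA left out, 133 higher and 46 lower genes remained. In simulated counts for this comparison, 1.55% of unchanged genes passed 2-fold in either direction. The simulation drew Poisson counts from the profile of both libraries summed, with no spread between cells or mice. Its share therefore covers counting error only and is not the share to expect between 2 such libraries. The genes furthest above were receptors for bacterial and mitochondrial formyl peptides, a secreted acute-phase protein, an antiprotease and an inhibitor of NF-kB signalling. Those furthest below included Ccr2, Atf3 and Apoe. With 1 library a genotype, these are differences between the libraries. Tsc1 itself had 9 UMIs in the 55 cells of Tsc1 flox and 28 in the 276 of Tsc1 RPE KO, 26.2 and 16.5 CPM (ratio 0.629, 0.288 to 1.51). The cells are not RPE, and 3′ tags need not read the deleted exons, so Tsc1 checks nothing here.

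Fpr1 and Fpr2, neighbouring formyl peptide receptor genes on chromosome 17 (17876471 to 17883940, minus strand, and 17887824 to 17893952, plus strand), were both high in Tsc1 RPE KO. Fpr1 had 0 UMIs in Tsc1 flox against 98 in Tsc1 RPE KO, where 62 cells carried it, at least 6.60-fold higher against a floor of 3 UMIs. Fpr2 had 6 and 222 UMIs, a ratio of 7.48 (3.38 to 20.6). Siglece, an inhibitory sialic acid receptor, had 0 and 108 UMIs (at least 7.27-fold higher). Ikbke, a kinase of innate immune signalling, had 0 and 101 UMIs (at least 6.80-fold). Hp, haptoglobin, which binds free hemoglobin, had 157 and 702 CPM, a ratio of 4.46 (3.40 to 5.98). Slpi, a secreted inhibitor of elastase, had 17.5 and 107 CPM, and Tnip3, an inhibitor of NF-kB activation, 14.6 and 94.7 CPM. Wnt6, a secreted Wnt ligand, had 3 and 184 UMIs, a ratio of 12.4 (4.17 to 60.6).

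These genes were highest in 1 of the 4 mice, the female of Tsc1 RPE KO. Hp had 155 CPM in the Xist cells and 109 CPM in the Y cells of Tsc1 flox. In Tsc1 RPE KO it had 796 CPM in the Xist cells and 62.8 CPM in the Y cells, a ratio of 12.7 between them (6.86 to 26.5). The ratio of the Tsc1 RPE KO male to the Tsc1 flox male was 0.574 (0.225 to 1.42), within counting error of 1. Txn1, the redox protein thioredoxin, had 325 and 227 CPM in the Xist and Y cells of Tsc1 flox and 921 and 220 CPM in those of Tsc1 RPE KO. Wnt6 had 8.14, 16.8, 128 and 6.28 CPM in the same order, and Fpr2 16.3, 25.2, 144 and 18.8 CPM. Fpr1, Ikbke and Cfb (complement factor B) had no UMI in 3 of the 4 mice and 80, 81 and 40 UMIs in the Xist cells of Tsc1 RPE KO. For these the 28 Y cells of Tsc1 RPE KO, with a single UMI worth 6.28 CPM, cannot exclude a low level. Of the 10 genes furthest above, 10 had a level in the Tsc1 RPE KO male nearer to Tsc1 flox than to the Tsc1 RPE KO female, measured on log2 of CPM plus 5. These genes were ranked on the sum of all 276 Tsc1 RPE KO cells, of which 197 were Xist cells and 28 Y cells. The choice of genes thus favoured those high in the female, and the count of 10 is a description only. Of the 10 genes, 3 had no UMI in the male. Between the Xist and Y cells of Tsc1 RPE KO, 7.49% of 4003 genes were at least 2-fold higher and 1.85% lower.

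Gated cells without Fabp4, of which 115 were Xist cells and 13 Y cells in Tsc1 RPE KO, gave the same top mouse for each of the 10 genes but Cfb. In them Hp had 175 CPM in the Xist cells and 113 CPM in the Y cells of Tsc1 flox, and 732 and 65.7 CPM in those of Tsc1 RPE KO. Txn1 had 203, 144, 636 and 263 CPM in that order. Cfb had 42.1, 0, 36.4 and 43.8 CPM, so the female of Tsc1 RPE KO was not highest. Tnip3 had 49.7 CPM in the Xist cells and 43.8 CPM in the Y cells of Tsc1 RPE KO, and no UMI in the Xist or the Y cells of Tsc1 flox. With 13 Y cells, these levels rest on few UMIs. In B cells Hp had 0 CPM in both mice of Tsc1 flox and 4.23 and 0 CPM in those of Tsc1 RPE KO, and Txn1 lay between 69.4 and 128 CPM in the 4 mice.

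**Figure D4:**
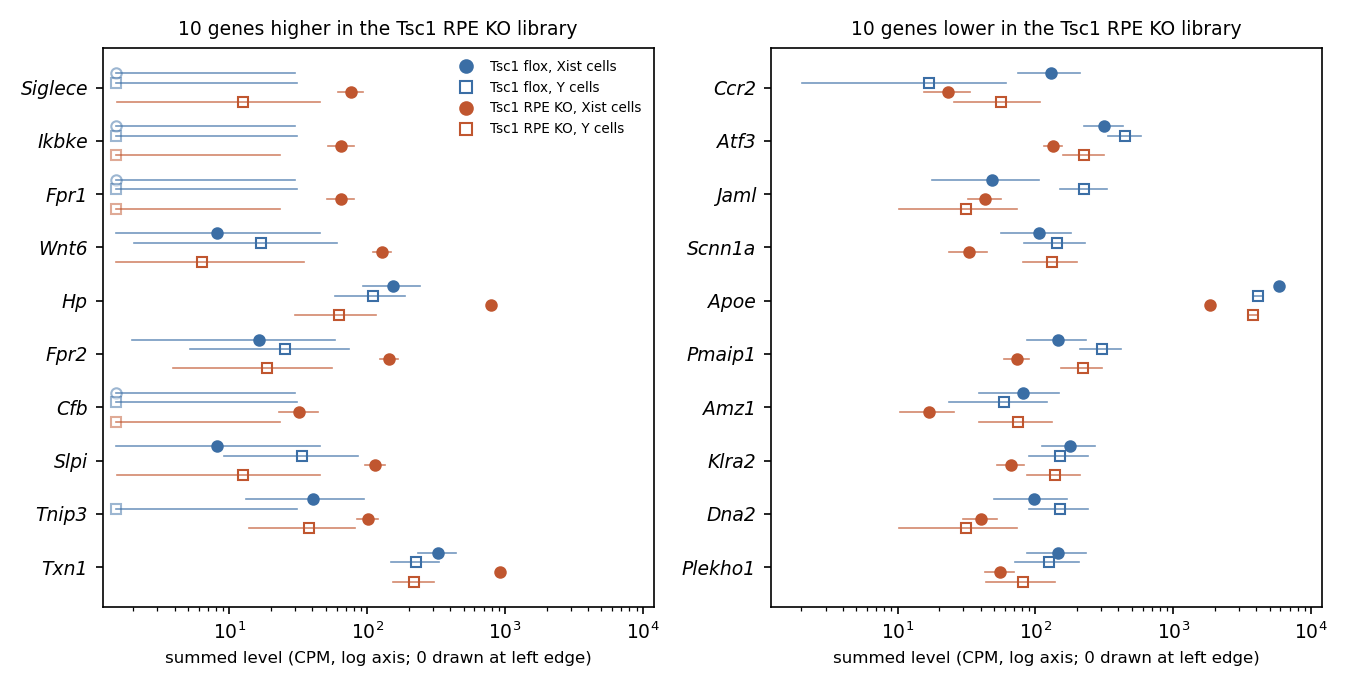
Summed level (CPM, log axis) in cells with Fabp4 of the 10 genes furthest above (left) and below (right) in Tsc1 RPE KO against Tsc1 flox, shown for the Xist cells (filled circles) and Y cells (open squares) of each library with 95% Poisson intervals; values of 0 are drawn pale at the left edge. On the left the Xist cells of Tsc1 RPE KO stand above the other 3 mice for each gene.

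The genes lower in Tsc1 RPE KO were less uniform. Apoe, the lipid carrier that macrophages secrete, had 5874 CPM in the Xist cells and 4123 CPM in the Y cells of Tsc1 flox, and 1856 and 3807 CPM in those of Tsc1 RPE KO. Its library ratio was 0.431 (0.407 to 0.457), and the ratio within Y cells alone was 0.923 (0.818 to 1.04). Scnn1a, a sodium channel subunit, had 106, 143, 32.9 and 132 CPM in the same order, again low in the Xist cells of Tsc1 RPE KO. Atf3, a stress-induced transcription factor, had 317, 446, 135 and 226 CPM and was lower in both mice of Tsc1 RPE KO. Jaml, an adhesion molecule, had 48.8, 227, 43.3 and 31.4 CPM, so the male of Tsc1 flox stood apart from the rest. Ccr2 had 130, 16.8, 23.3 and 56.5 CPM and was high in the Xist cells of Tsc1 flox. Of the 10 genes furthest below, 6 had a level in the Tsc1 RPE KO male nearer to Tsc1 flox.

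Over all genes the mice differed less plainly than these examples. In Xist cells 8.33% of 3914 genes were at least 2-fold higher in Tsc1 RPE KO and 2.63% lower, and in Y cells 1.13% of 884 were higher and 1.13% lower. Over those same 884 genes, which are the ones with at least 50 UMIs in Y cells, the Xist cells gave 1.24% higher and 1.36% lower, close to the Y cells. Over them the Xist and Y cells of a library differed in 0.679% (higher in Xist cells) and 1.13% (lower) of genes in Tsc1 RPE KO and in 0.905% and 2.04% in Tsc1 flox. Genes that are low in Y cells, such as Hp and Fpr1, are not among the 884. Leaving out genes above their gated level in free RNA, the Tsc1 RPE KO male was nearer to Tsc1 flox for 69 of 133 genes higher in Tsc1 RPE KO and for 19 of 46 lower.

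Of 13 measured antioxidant and iron-handling genes, 11 had a ratio of Tsc1 RPE KO to Tsc1 flox above 1 and 3 were at least 2-fold higher, with a median log2 ratio of 0.24. Over all 4975 genes 2626 were above 1, 4.8% were at least 2-fold higher and the median was 0.03. Prdx5, Sod2 and Fth1 were each highest in the Xist cells of Tsc1 RPE KO. Prdx5, a peroxiredoxin, had 643 and 539 CPM in the Xist and Y cells of Tsc1 flox and 1727 and 540 CPM in those of Tsc1 RPE KO. Sod2, the mitochondrial superoxide dismutase, had 89.5, 135, 332 and 107 CPM. Fth1, the ferritin heavy chain, had 3490, 2995, 5232 and 3179 CPM. Il1b, an inflammatory cytokine, had 317 and 446 CPM in Tsc1 flox and 1104 and 710 CPM in Tsc1 RPE KO, higher in both mice of the latter. The nonclassical identity genes gave no such difference, with 9 of 17 above 1, none at least 2-fold apart and a median log2 ratio of 0.05. Of 8 measured genes of the TSC and mTORC1 pathway, none was at least 2-fold apart and the median was −0.01. Eif4ebp1, a target of mTORC1, had 210 and 215 CPM.

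Cd36 and Pparg differed among the mice in another order. Cd36 had 447 and 379 CPM in the Xist and Y cells of Tsc1 flox and 225 and 346 CPM in those of Tsc1 RPE KO, with a library ratio of 0.574 (0.473 to 0.699). Pparg had 65.1, 67.3, 62.6 and 176 CPM and was highest in the male of Tsc1 RPE KO, where the ratio of Xist to Y cells was 0.356 (0.228 to 0.569). Lpl, lipoprotein lipase, had 8.14, 75.7, 108 and 0 CPM, from 1, 9, 134 and 0 UMIs.

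Many cells lay at the Fabp4 limit of the gate, since 19 of 55 (34.5%) and 66 of 276 (23.9%) had a single Fabp4 UMI, and few lay at its other limits. With Fabp4 and the other limits met, 1 cell of Tsc1 flox and 6 of Tsc1 RPE KO had a gate sum of 1 and were just outside, and 5 and 14 had a sum of 2 and were just inside. The sum was 4 or more in 44 of 55 and 237 of 276 cells. The cells just inside had 199 and 723 CPM of Fabp4 and those just outside 695 and 746 CPM. A further 3 and 21 cells with Fabp4 were left out for a UMI of Cd79a, Cd3e or Ncr1, and 0 and 2 had at least 1000 UMIs but fewer than 1500.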

How the data were processed

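Single-cell 3′ libraries (10x kit v2, per the labels' protocols) were aligned to mm10 with Cell Ranger 2.1.1, per the submitters' processing notes, and the matrix files name Cell Ranger 4 in their header. The deposited values are raw UMI counts per gene and barcode, unfiltered. Gene positions are from GENCODE M21 (mm10), which matched 32158 of 32285 gene identifiers, and 57 of 74 genes looked up had a RefSeq promoter entry.

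Barcodes were gated as described and UMIs of all genes were summed per set of cells and scaled to CPM (Python 3.11.15, numpy 2.4.6, scipy 1.17.1, pandas 2.3.3). No doublet caller was run. A gene was measured with at least 50 UMIs over the compared sets. Genes with 0 UMIs on one side were set to a floor of 3 UMIs in the group. Free RNA was taken from barcodes with 10 to 100 UMIs. The ratio script was tested on simulated counts. B, T and endothelial cells were kept barcodes with marker UMIs.

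Genes named are the gate genes and Cd36, up to 4 members of each list by UMIs plus called members, and the 12 (Fabp4) or 10 (library) highest and lowest by the interval bound nearest 1, leaving out gate genes, Xist, Tsix, Y-linked and mitochondrial genes and genes above their gated level in free RNA. Pltp, Pilra, Lilra5, Prdx5, Sod2, Lpl, Bcl2a1d, Hbb-bt and Fcgr1 were named after their values were seen where this rule does not reach them. The same holds for the genes listed as called without cells rich in class II or classical RNA. The members and lists were chosen with earlier results of these data known.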

Additional observations from a re-analysis of the deposited data

Results flagged for a closer look

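The 8 genes below had ratios at least 2-fold apart in opposite directions in the compared groups, and none of these differences was tested. Between cells with and without Fabp4, Cxcl2 had a ratio of 5.58 in Tsc1 flox but 0.455 in Tsc1 RPE KO, and 22 of its 29 UMIs in Tsc1 flox cells with Fabp4 lay in 1 cell. Rgcc had ratios of 9.14 and 0.14 in the same order, from 19 and 2 UMIs in the former library and 5 and 24 in the latter. Hba-a2, a hemoglobin gene, had ratios of 0.405 and 33.6, and 340 of its 350 UMIs in Tsc1 RPE KO cells with Fabp4 lay in 1 cell.

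Between Tsc1 RPE KO and Tsc1 flox cells with Fabp4, Lpl had a ratio of 13.2 in Xist cells and of at most 0.249 in Y cells, where the 28 Tsc1 RPE KO cells had none. The first ratio rests on 1 UMI in the Xist cells of Tsc1 flox. The Y cells of Tsc1 flox had 9 UMIs in 3 cells, 5 of them in 1 cell. Lyst, which regulates lysosome size, had ratios of 3.69 and 0.373. The reverse order stood for Dnajb9, a chaperone of the endoplasmic reticulum, with 0.441 in Xist cells and 3.73 in Y cells. Fcgr2b, the inhibitory IgG receptor, had 0.395 and 2.65, and S100a10 had 0.474 and 2.49.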

How the results depend on the processing

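Each genotype had 1 library, so no library could be left out and mouse, sex and genotype cannot be told apart. No paired analysis was possible because each group holds a single pooled sample. In Tsc1 flox, 55 cells with Fabp4 and 43 without limit every ratio, and genes with few UMIs pass 2-fold by counting error alone. Cells without a Fabp4 UMI may carry its RNA below this depth.

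A lower or higher minimum of UMIs a barcode, a stricter limit on UMIs of other cell types, size factors, means over cells, free RNA subtracted, and leaving out barcodes with rod, red cell or fibroblast RNA left the shares within their interval and the counts of genes within 1.5 times. A gate sum of at least 4 gave a share of 12.8% of Tsc1 RPE KO barcodes and 39 genes lower with Fabp4. With at least 2 UMIs of Fabp4 the shares were 2.35% and 11.4% of barcodes and 36.7% and 48.6% of gated cells. Cells thinned to 1500 UMIs gave 36.7% and 38.2% of gated cells. Genes then numbered 3 higher and 17 lower with Fabp4, and 50 higher and 9 lower in Tsc1 RPE KO. Thinned cells were grouped anew by the Fabp4 UMIs left to them, and fewer genes passed the minimum. The part of each in these counts was not tested. In the thinned cells the Tsc1 RPE KO log2 ratios of Cdk6 (−0.476) and Tgfbr3 (−0.393) turned, and F13a1, Ifi205, Ikbke and Fpr1 gave no value.

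A minimum of 10 UMIs a gene gave 55 higher and 112 lower with Fabp4 and 878 and 411 between libraries, and one of 100 gave 8 higher with Fabp4 and 93 and 20 between libraries. At 1.5-fold the counts were 189 and 176, and 610 and 363, and at 3-fold 2 and 20, and 71 and 6. Without cells rich in class II or Ly6c2, Ccr2, F13a1 and Fn1 RNA, added after seeing the data, Fabp4 was in 69.7% and 71.3% of gated cells, 10 genes were higher and 5 lower, and the log2 ratio of Cd74 in Tsc1 RPE KO turned to 0.238. Calling Xist and Y cells at 2 UMIs, also added after seeing the data, left 171 and 14 cells with Fabp4 in Tsc1 RPE KO and gave 147 genes lower in Xist cells in place of 74. The causes of the other shifts were not tested.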

Other observations

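Lysosome and phagocytosis genes leaned below 1 with Fabp4: 13 of 19 measured members were below 1 in both libraries, with median log2 ratios of −0.38 and −0.43. In single libraries 14 and 16 of the 19 were below 1. Over all 6412 genes 2942 and 2897 were, with medians of 0.06 and 0.04. Psap, the precursor of lysosomal lipid-degrading cofactors, had ratios of 0.707 (0.640 to 0.781) and 0.613 (0.577 to 0.651) in Tsc1 flox and Tsc1 RPE KO. Axl, a receptor for the uptake of dying cells, had 5 and 13 UMIs with and without Fabp4 in the former library and 5 and 40 in the latter. Glycolysis genes differed little: of 13 measured members, 7 were above 1 in both libraries, 0 were below 1 in both and none was at least 2-fold apart in both. In single libraries 11 and 9 of the 13 were above 1, with median log2 ratios of 0.11 and 0.08, and over all 6412 genes 3399 and 3515 were. Gapdh had ratios of 1.04 and 1.06.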
